A study of Gallus gallus with 8 samples.

Results

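The extracellular matrix of the distal chick wing bud was examined through 58 genes: the chains of the collagens and laminins, and fibronectin (FN1), the fibrillins (FBN1 and FBN2), tenascin C (TNC), versican (VCAN), hyaluronan synthase 2 (HAS2), lumican (LUM), decorin (DCN), periostin (POSTN) and SPARC. Members were taken by gene symbol, and the cartilage collagens COL2A1 and COL9A1, the collagen VI chains COL6A1, COL6A2 and COL6A3, and COL12A1 were left out. Of these 58 genes, 50 had at least 1 matched RefSeq transcript among 14612 matched genes in all, and 33 of the 50 were abundant enough to be among the 9062 genes tested. One symbol that the rule takes, COL4A3BP, encodes a ceramide transfer protein and no matrix protein, so 57 members and 32 of the tested genes were matrix genes. The RNA came from 3 groups of distal wing mesenchyme staged according to Hamburger and Hamilton (HH), all from eggs kept at 37 °C. HH24g (2 libraries) was mesoderm of HH20 wing buds with the genotype CMV-GFP, freed of its epithelium and left for 24 h under the ridge of ectoderm at the wing tip of WT hosts that were at HH24 when grafted. HH27 (3 libraries, genotype WT, no treatment) was ungrafted tissue which, per the study's methods, came from the opposite wing of the hosts, and HH24 (3 libraries, genotype WT, no treatment) came from other embryos. Grafted cells were of the age of HH24 and lay in surroundings of stage HH27. Both the CMV-GFP genotype and the grafting were present in HH24g and in neither other group, so their parts in any difference cannot be told apart. Per the study's methods, several pieces of tissue were pooled for each experiment, and nothing in the labels says how replicates were drawn, so p-values measure only the spread between these libraries. In bulk RNA, fewer cells of a type and less RNA per cell cannot be told apart.

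Collagens are trimers of alpha chains. The fibrillar types I, III and V build the fibrils of connective tissue, fibril-associated types decorate those fibrils, and type IV forms the network of basement membranes together with the laminins, trimers of an alpha, a beta and a gamma chain. Fibronectin and the fibrillins form fibrils on which cells move and growth factors are held, and the small leucine-rich proteoglycans lumican and decorin bind collagen and limit fibril width. In the early limb bud the mesenchyme beneath the ridge is loose and rich in hyaluronan and versican, and a basement membrane separates it from the ectoderm.

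Library size set how firmly each level was known. After TMM scaling (trimmed mean of M-values) the effective size was 2003500 and 3273297 reads in HH24g, 1029752 to 3849969 in HH27 and 934614 and 1022438 in HH24 replicates 1 and 3. HH24 replicate 2 stood apart at 128271 reads, so that 3 reads were worth 23.4 CPM (counts per 1000000 reads of the scaled library size) there and at most 3.21 CPM elsewhere, and members together had 553 reads in it against 5565 to 27998 in the other libraries. Of 1053 genes with over 150 reads in HH24 replicates 1 and 3, 10 had under 0.5 read in replicate 2, and COL4A6 and COL5A2 were among them. The 6 markers of limb mesenchyme (PRRX1, TWIST1, PDGFRA, MSX1, TBX5 and LHX9) were present in every library, with a summed level of 1605 to 1624 CPM in HH24g, 766 to 1065 CPM in HH27 and 1170 to 1566 CPM in HH24. LHX9 alone averaged 788 CPM in HH24g, 156 CPM in HH27 and 682 CPM in HH24. The markers did not move together: TWIST1 averaged 103, 184 and 89.0 CPM in these groups, and TBX5 111, 179 and 117 CPM. PRRX1 and PDGFRA averaged highest in HH24g, and MSX1 in HH24. Markers of other cells were present too: 6 of 7 ectoderm markers matched and summed to 319 to 385 CPM in HH24g, 365 to 476 CPM in HH27 and 267 to 359 CPM in HH24, and 7 of 8 endothelium markers summed to 211 to 225 CPM in HH24g, 148 to 176 CPM in HH27 and 132 to 213 CPM in HH24. The 5 matched of 10 erythroid genes summed to 545 to 1019 CPM in HH24g, 302 to 1616 CPM in HH27 and 2730 to 3313 CPM in HH24, so every HH24 library was above every other library. All 5 muscle markers matched, summed to at most 3.91 CPM in any library, and MYOG was at 0 in all 8. The part of these cells in any matrix result was not tested.

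Members with a matched transcript were ranked on a scale per transcript length (the deposited TPM, rescaled to the same sum over matched genes in every library). The order therefore leaves out the collagens excluded by the rule, and COL1A1, LAMB1 and LAMC1, and does not rank the whole matrix of this tissue. COL1A2, an alpha chain of type I collagen, and SPARC, a collagen-binding glycoprotein, led these members, with means over 8 libraries of 423 and 414. LUM (251), DCN (162) and FN1 (119) followed, then COL4A5 (75.1), COL5A2 (61.1), VCAN (56.3), COL26A1 (52.1) and COL4A6 (41.0). This order is that of the mean over all libraries and differed between groups: COL26A1 averaged 45.2 in HH24g and 82.8 in HH27, where VCAN averaged 72 in HH24g and 65.5 in HH27. COL1A2 and SPARC did not differ beyond their spread: SPARC was the higher in all 3 HH24 libraries, in HH24g replicate 2 and in HH27 replicate 3, and COL1A2 in the rest. COL18A1 (25.1), POSTN (25.0) and LAMA1 (25.0), further down, did not differ beyond their spread either. The lowest tested matrix genes were COL9A2 (1.90), COL15A1 (1.88) and LAMB3 (1.80). Among basement membrane collagens the chains COL4A5 and COL4A6 stood well above COL4A1 (3.99) and COL4A2 (8.17), and among the laminin alpha chains LAMA1 and LAMA5 (21.8) stood above LAMA4 (9.31). Only 1 of 2 COL4A1 transcripts and 3 of 7 COL4A2 transcripts of the reference matched, so a level is that of the matched transcripts. Levels per length compare genes within a library, and groups were compared by CPM.

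**Figure D1:**
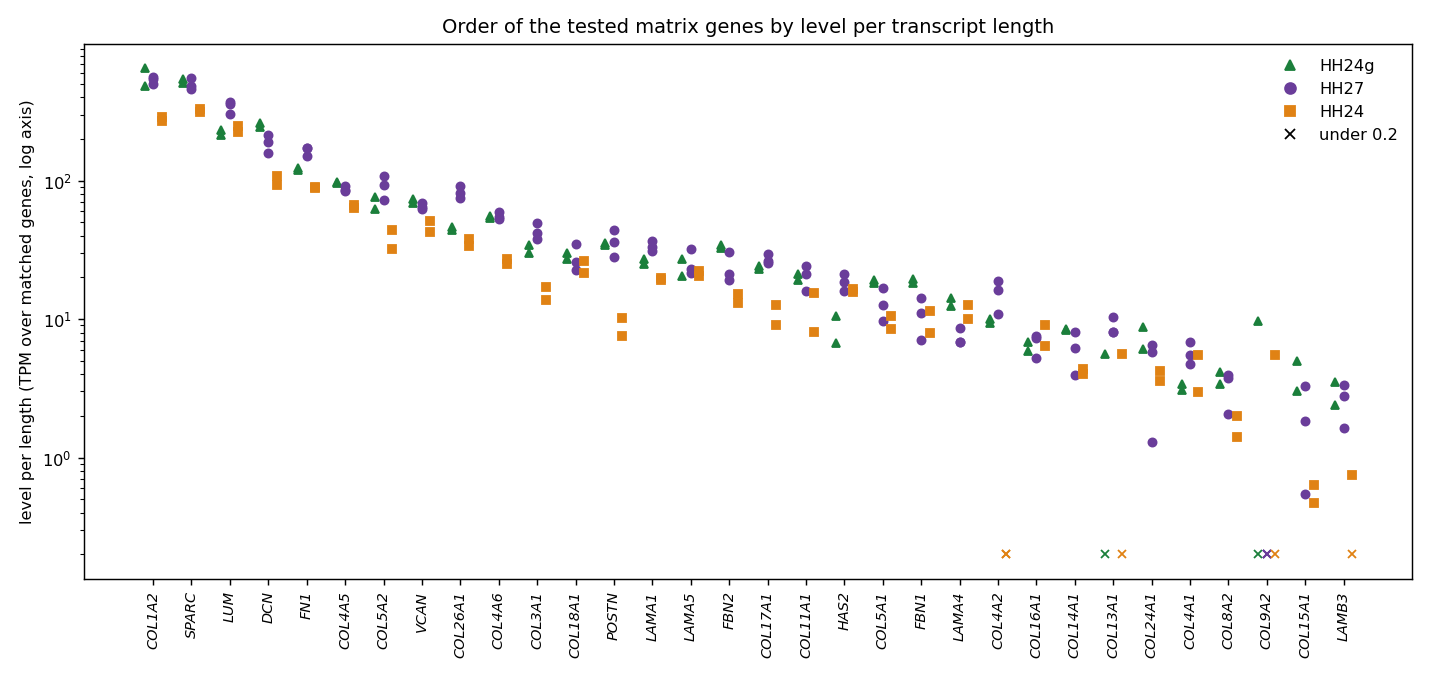
Level per length (TPM over matched genes, log axis) of each of the 32 tested matrix genes in HH24g (green triangles), HH27 (purple circles) and HH24 replicates 1 and 3 (orange squares), ordered by the mean over 8 libraries, where a cross marks a value under 0.2. HH24 replicate 2 is not drawn because of its depth. COL1A2 and SPARC hold the first places in every library drawn, and COL4A2 is under 0.2 in HH24.

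Grafted cells were first set against HH27, the stage of the host, to ask which matrix genes kept the level of the donor's age. In HH24g, COL26A1, FN1 and LUM were lower than in HH27 and the laminin chain LAMA4 was higher, all past an adjusted p of 0.05 but by less than 2-fold. A gene was called when its adjusted p-value (limma voom, Benjamini-Hochberg over all genes tested) was under 0.05 and its log2 fold change over 1 in either direction, and 0 of 33 members were called, beside 1.71% of all genes tested (1.02% higher and 0.695% lower). With edgeR and DESeq2 0 members were called as well. Without the fold limit 4 members passed (COL26A1, FN1, LUM and LAMA4), beside 3.18% of all genes, and edgeR's quasi-likelihood test gave 0 members under an adjusted p of 0.05. At an unadjusted p under 0.05 there were 14 members, 5 higher and 9 lower in HH24g (17.2% of all genes, 9.15% higher and 8.04% lower), with 12 in edgeR and 11 in DESeq2. The libraries of both groups did not overlap for 19 members, 9 higher and 10 lower, beside 32.7% of all genes (16.3% higher and 16.4% lower). The median log2 fold change of the members was 0.01, and that of all genes -0.01.

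The grafts were next set against HH24, the stage that matches the age of the donor cells. Here 0 of 33 members were called, beside 0.011% of all genes (1 gene), and 11 members had an unadjusted p under 0.05 (11.3% of all genes), of which 8 were higher (5.21% of all genes) and 3 lower (6.05%) in HH24g. With edgeR and DESeq2 this count was 12 members each. COL4A2 was called with edgeR, and COL4A2, HAS2 and POSTN with DESeq2. The libraries did not overlap for 21 members (27.1% of all genes): 19 were higher in HH24g, beside 16.3% of all genes, and 2 were lower, beside 10.8%. The median log2 fold change was 0.38 for the members and 0.02 for all genes. These values include COL4A2, listed at 0 in every HH24 library, and COL4A3BP. Among the 31 tested matrix genes other than COL4A2, 17 were higher and 2 lower without overlap, beside the same shares of all genes. At an unadjusted p under 0.05, 7 of the 31 were higher and 3 lower, and the median of the 31 was 0.35. All 6 tested fibrillar collagens had a fold change above 0 in HH24g against HH24, with a median of 0.50, as did 4760 of all 9062 genes. HH24 replicate 2 listed COL5A2 and COL11A1 at 0 and COL24A1 at 0.57 read. Without that library these genes averaged 221, 73.2 and 23.0 CPM in HH24, against 287, 81.3 and 31.0 CPM in HH24g. None of the 6 passed an adjusted p of 0.05 with limma voom, while DESeq2 put COL1A2 under it (0.0118, with a range of 0.0118 to 0.433 over 16 alternatives).

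Between the stages themselves, HH27 against HH24, 2 of 33 members were called, beside 1.07% of all genes: POSTN rose (0.463% of all genes) and LAMA4 fell (0.607%) in HH27. Without the fold limit COL3A1 and COL26A1, both higher in HH27, joined them (4 members, beside 1.78% of all genes). At an unadjusted p under 0.05 there were 10 members (15.3% of all genes), 8 higher (7.22%) and 2 lower (8.13%). The libraries did not overlap for 14 members (23.6% of all genes), 12 of them higher in HH27, beside 13.7% of all genes, and 2 lower, beside 9.91%. The median log2 fold change was 0.26 for the members and 0.03 for all genes. COL4A2 and COL4A3BP are included here too. Among the 31 tested matrix genes other than COL4A2, 11 were higher and 2 lower without overlap, beside the same shares of all genes. At an unadjusted p under 0.05, 7 of the 31 were higher and 2 lower, and the median of the 31 was 0.26. edgeR called 3 members (COL3A1, COL4A2 and POSTN) and DESeq2 4 (COL3A1, COL4A2, LAMA4 and POSTN). HH24 libraries also held the most erythroid RNA (2730 to 3313 CPM, against 302 to 1616 CPM in HH27), whose part in these differences was not tested. The 3 comparisons share libraries, so the values of each gene are given side by side below, and no agreement between comparisons is drawn from them.

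**Figure D2:**
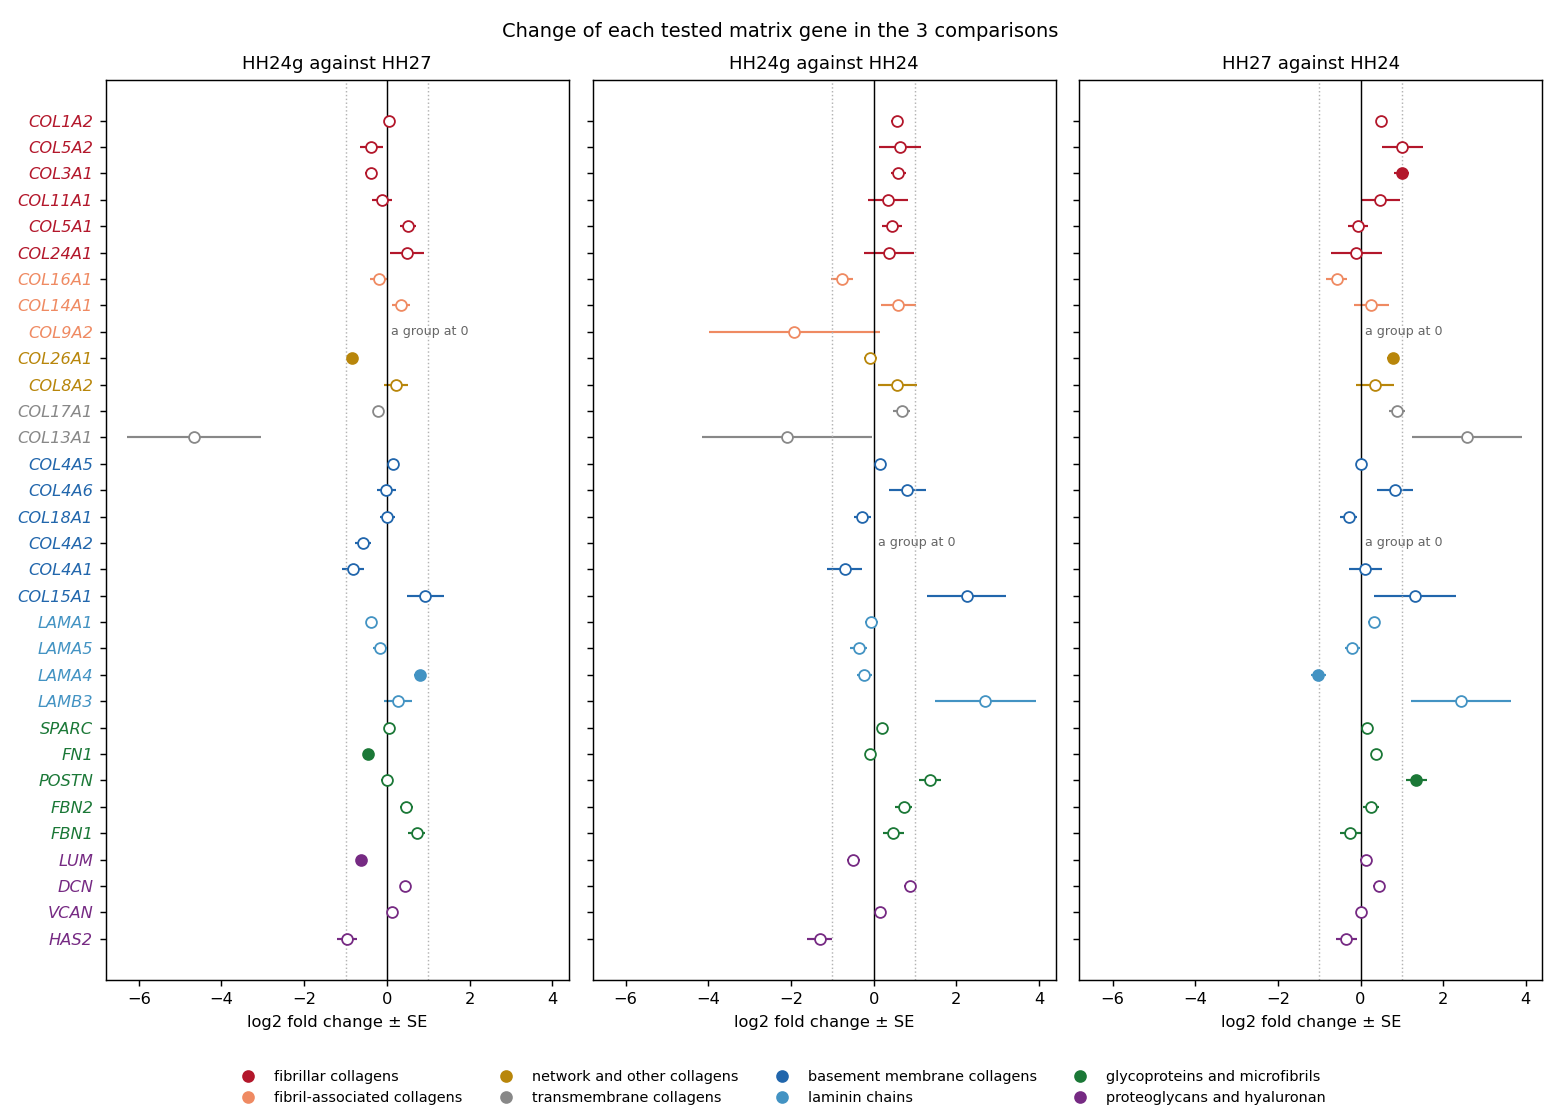
Log2 fold change ± SE (limma voom) of the 32 tested matrix genes in HH24g against HH27 (left), HH24g against HH24 (middle) and HH27 against HH24 (right), coloured by class, with the genes of a class ordered by level. Filled points had an adjusted p under 0.05 (4 genes on the left, none in the middle, 4 on the right), dotted lines mark a log2 fold change of 1 in either direction, and no fold is drawn where a group was listed at 0 in every library.

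Fibrillar collagens form the bulk of connective tissue fibrils, and 6 of the 8 in the reference were tested. COL1A2 had 2050.2 and 1602 CPM in HH24g, against 1699, 1766 and 1725 CPM in HH27 and 1397, 965 and 1156 CPM in HH24. Both graft libraries and all HH27 libraries lay above the HH24 libraries, with a log2 fold change of 0.55 ± 0.14 (SE, adjusted p 0.178) in HH24g against HH24 and 0.50 ± 0.13 (SE, adjusted p 0.108) in HH27 against HH24, and HH24g overlapped HH27 (0.05 ± 0.11). Its adjusted p in HH27 against HH24 ran from 0.00863 to 0.368 over 16 alternatives, the lowest with DESeq2. COL3A1, the single chain of type III collagen, had 121 and 109 CPM in HH24g, against 142, 169.9 and 147 CPM in HH27 and 90.9, 46.8 and 65.5 CPM in HH24. The groups did not overlap: HH27 was highest, HH24g intermediate and HH24 lowest. In HH27 against HH24 COL3A1 was 1.99-fold higher (log2 fold change 0.99 ± 0.17 SE, adjusted p 0.0271), just under the fold limit, and it was called with edgeR (1.03, adjusted p 0.028) and DESeq2 (1.02, adjusted p 2.43e-05). Its adjusted p ran from 2.43e-05 to 0.247 over 15 alternatives and was over 0.05 without HH24 replicate 1 (0.0743), HH24 replicate 2 (0.0571), HH24 replicate 3 (0.247) or HH27 replicate 3 (0.0535). In the grafts COL3A1 measured -0.39 ± 0.12 against HH27 (adjusted p 0.144) and 0.60 ± 0.18 against HH24 (adjusted p 0.26).

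The minor fibrillar chains were less even. COL5A2, a chain of the type V collagen that starts fibrils, had 309 and 266 CPM in HH24g, against 320.4, 435 and 380.2 CPM in HH27 and 201, 0 and 240.3 CPM in HH24, and it is one of the 10 genes with under 0.5 read in HH24 replicate 2. Its libraries did not overlap between any of the groups, but no comparison had an unadjusted p under 0.05. COL5A1, its partner chain, had 99.9 and 99.7 CPM in HH24g, against 54.5, 66 and 87.1 CPM in HH27 and 84.8, 117 and 60.0 CPM in HH24. Both graft libraries lay above HH27 for COL5A1 (log2 fold change 0.51 ± 0.20 SE, adjusted p 0.236). They lay within the range of HH24 only through HH24 replicate 2 (15 reads), and above HH24 replicates 1 and 3. The ratio of COL5A2 to COL5A1 per length was 3.96 and 3.43 in HH24g, 7.53, 8.44 and 5.60 in HH27, and 3.05 and 5.14 in HH24 replicates 1 and 3. The HH27 ratios were above the others without overlap. COL11A1 had 83.3 and 79.4 CPM in HH24g, against 89.7, 60.9 and 104 CPM in HH27 and 51.6, 0 and 94.9 CPM in HH24. COL24A1, a fibrillar chain of lower level, had 35.9 and 26 CPM in HH24g, against 25.7, 5.27 and 26.8 CPM in HH27 and 22.5, 4.46 and 23.5 CPM in HH24. COL11A1 overlapped between HH24g and each stage, as COL24A1 did between HH24g and HH27. COL3A1 and COL5A2 lie next to each other on chromosome 7 of the assembly GRCg7b, with 0 protein-coding genes between them. The ratio of COL3A1 to COL1A2 per length was 0.0532 and 0.0618 in HH24g, against 0.0757, 0.0873 and 0.0770 in HH27 and 0.0593, 0.0442 and 0.0507 in HH24, so HH27 stood above the others and HH24g overlapped HH24.

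Fibril-associated collagens sit on the surface of fibrils, and 3 of 8 were tested. COL16A1 had 22 and 19.9 CPM in HH24g, against 25.7, 16.5 and 24.2 CPM in HH27 and 44.9, 39 and 27.4 CPM in HH24. Every HH24 library lay above the libraries of HH24g and HH27, with a log2 fold change of -0.77 ± 0.26 (SE, adjusted p 0.308) in HH24g against HH24 and -0.58 ± 0.24 (SE, adjusted p 0.311) in HH27 against HH24. COL14A1 had 34.5 and 36.5 CPM in HH24g, against 27.7, 16.3 and 33.2 CPM in HH27 and 27.5, 0 and 22.2 CPM in HH24, and both graft libraries were above every other library, with no unadjusted p under 0.05. COL9A2, a chain of the cartilage collagen type IX, had reads in 1 graft library (15.5 CPM in replicate 1, 0 in replicate 2) and 1 HH24 library (11.7 CPM in replicate 3), and was listed at 0 in all HH27 libraries. No fold is given for COL9A2 against HH27, and its fold against HH24 changed direction with the processing.

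COL26A1, a collagen with an EMI domain, stood out among the remaining collagens. COL26A1 had 163 and 161 CPM in HH24g, against 285, 320.4 and 285 CPM in HH27 and 182, 86.6 and 178 CPM in HH24. Both graft libraries lay below every HH27 library. They lay inside the range of HH24 only through HH24 replicate 2 (11.1 reads), and below HH24 replicates 1 and 3. The grafts were 1.81-fold below HH27, a log2 fold change of -0.85 ± 0.12 (SE, adjusted p 0.00694), the lowest adjusted p of any member in this comparison, and it was over 0.05 without HH24g replicate 2 (0.0681) and with edgeR (0.0524). Between the stages (HH27 against HH24) its log2 fold change was 0.77 ± 0.14 (SE, adjusted p 0.0335), which was over 0.05 with any 1 library left out other than HH24 replicate 2 (0.0540 to 0.177, and 0.0254 without that library). The adjusted p of COL26A1 between the stages was also over 0.05 with edgeR (0.0554) and without the filter on low counts. In HH24g against HH24 COL26A1 differed by -0.08 ± 0.16. COL8A2, a short-chain network collagen, had 13 and 11 CPM in HH24g, against 6.90, 11.7 and 12.2 CPM in HH27 and 9.63, 7.80 and 5.87 CPM in HH24, with no unadjusted p under 0.05. COL17A1, the transmembrane collagen of hemidesmosomes in basal epidermal cells, had 80.9 and 89.5 CPM in HH24g, against 99.3, 88.4 and 104 CPM in HH27 and 68.5, 39 and 43 CPM in HH24. Its HH24 libraries lay below all others, with a log2 fold change of 0.68 ± 0.20 (SE, adjusted p 0.249) for HH24g and 0.89 ± 0.19 (SE, adjusted p 0.0634) for HH27, neither under an adjusted p of 0.05. DESeq2 gave an adjusted p of 0.00562 in HH27 against HH24, where it ran from 0.00562 to 0.372 over 15 alternatives. The 6 matched ectoderm markers summed to 319 to 385 CPM in HH24g, 365 to 476 CPM in HH27 and 267 to 359 CPM in HH24. Of these, CLDN1 averaged 218, 261 and 153 CPM in HH24g, HH27 and HH24, and EPCAM 89.0, 96.5 and 90.7 CPM. CDH1 averaged 37.4, 53.9 and 52.2 CPM in the same groups, and FGF8 4.94, 12.3 and 10.5 CPM. TP63 and KRT5 had at most 3.93 CPM in any library. The part of ectoderm in COL17A1 was not tested. COL13A1, a transmembrane collagen of cell contacts, had 12 and 0 CPM in HH24g, against 18.5, 21.8 and 17.1 CPM in HH27 and 18.2, 7.71 and 0 CPM in HH24. The fitted change in HH24g against HH27 was -4.67 ± 1.62 (SE, adjusted p 0.183), and -0.58 without HH24g replicate 2, where the gene was at 0.

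**Figure D3:**
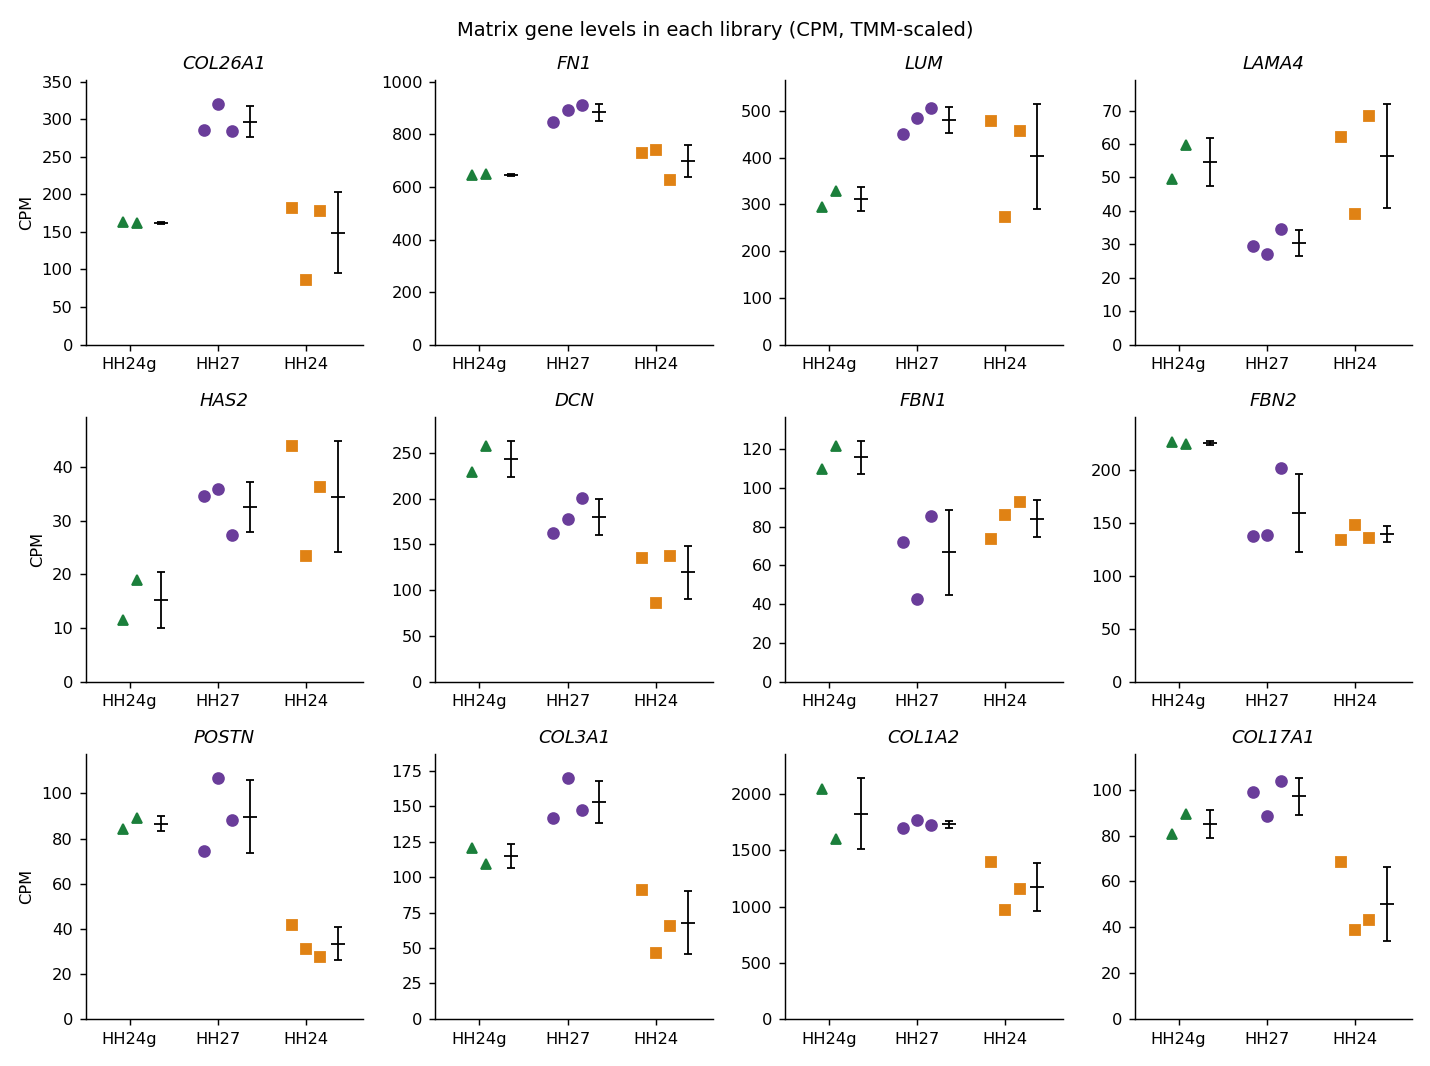
CPM (TMM-scaled) of 12 matrix genes in each library of HH24g (green triangles), HH27 (purple circles) and HH24 (orange squares), with the mean and SD of each group in black. COL26A1, FN1 and LUM are lower in both graft libraries than in every HH27 library, LAMA4 and DCN are higher, and POSTN and COL3A1 are lowest in HH24.

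Basement membrane collagens were represented by 6 tested genes of 9. COL4A5 and COL4A6, which form a type IV network of their own, lie next to each other on chromosome 4. COL4A5 had 480.1 and 493 CPM in HH24g, against 450.1, 444 and 421 CPM in HH27 and 479, 281 and 443 CPM in HH24. COL4A6 had 252 and 272 CPM in HH24g, against 268, 275 and 257 CPM in HH27 and 198, 0 and 159 CPM in HH24. The graft libraries of COL4A5 lay just above all others, HH27 overlapped HH24, and COL4A6 was lowest in HH24. Their log2 fold changes in HH24g against HH27 were 0.16 ± 0.10 and -0.01 ± 0.24. The ratio of COL4A6 to COL4A5 per length was 0.550 and 0.576 in HH24g, 0.623, 0.646 and 0.638 in HH27, and 0.432 and 0.375 in HH24 replicates 1 and 3, with no overlap between groups. COL4A1 and COL4A2, the chains of the type IV collagen found in most basement membranes, are neighbours on chromosome 1. COL4A1 had 12.6 and 14.4 CPM in HH24g, against 20.7, 22.3 and 27.9 CPM in HH27 and 34.6, 0 and 16.2 CPM in HH24. COL4A2 had 34.7 and 33.8 CPM in HH24g and 40.4, 65 and 56.1 CPM in HH27, and was listed at 0 in all 3 HH24 libraries. In HH24g against HH27 both chains were lower without overlap, COL4A1 by a log2 fold change of -0.82 ± 0.27 (SE, adjusted p 0.154) and COL4A2 by -0.58 ± 0.20 (SE, adjusted p 0.177), and neither passed.

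The 0 of COL4A2 in HH24 was shared with 5 other genes that had under 1 read in every HH24 library and over 40 reads in each other library: BCOR, COBLL1, FAM45A, SRSF2 and WDR81. SRSF2 encodes a splicing factor that most cells use. The reverse pattern, over 40 reads in HH24 replicates 1 and 3 and under 1 elsewhere, was met by 0 genes. COL4A1 had 32.3 and 16.6 reads in HH24 replicates 1 and 3, where COL4A2 had 0. For these reasons no fold against HH24 is given for COL4A2, although edgeR and DESeq2 called it in both comparisons with HH24, as did limma voom without the filter on low counts in HH27 against HH24.

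COL15A1 and COL18A1, whose cores carry chondroitin or heparan sulfate, lie in vascular and epithelial basement membranes. COL15A1 had 18.1 and 31.1 CPM in HH24g, against 11.8, 3.23 and 19.8 CPM in HH27 and 4.31, 7.80 and 5.12 CPM in HH24. Its levels were low and the graft libraries lay above HH24 without overlap (2.25 ± 0.96 SE, adjusted p 0.432) but overlapped HH27. Endothelium markers, which summed to 211 to 225 CPM in HH24g and 132 to 213 CPM in HH24, were not tested for their part in it. COL18A1 had 98.5 and 93.1 CPM in HH24g, against 80.4, 83.9 and 114 CPM in HH27 and 133, 156 and 95.8 CPM in HH24, and the groups overlapped in all comparisons.

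Laminin chains give basement membranes their first layer, and 4 of 12 were tested, since the matched transcripts held neither LAMB1 nor LAMC1, the most common beta and gamma chains. LAMA4, the alpha chain of vessel laminins, had 49.4 and 59.6 CPM in HH24g, against 29.5, 27.2 and 34.5 CPM in HH27 and 62.1, 39 and 68.5 CPM in HH24. HH27 was below both other groups without overlap. In HH27 against HH24 LAMA4 fell to 30.4 ± 3.76 CPM, against 56.5 ± 15.5 CPM in HH24 (SD, n = 3 each), a log2 fold change of -1.03 ± 0.18 (SE, adjusted p 0.0284). This call was lost with edgeR (-0.99, adjusted p 0.059), without the filter on low counts (-0.98, adjusted p 0.0847), and without HH24 replicate 1 (-1.05, adjusted p 0.152), HH24 replicate 3 (-0.93, adjusted p 0.241), HH27 replicate 1 (-0.98, adjusted p 0.0629) or HH27 replicate 2 (-0.99, adjusted p 0.064). Its adjusted p ran from 0.0031 to 0.241 over 15 alternatives. In HH24g, at 54.5 ± 7.18 CPM (n = 2), LAMA4 was 1.74-fold higher than in HH27, a log2 fold change of 0.80 ± 0.15 (SE, adjusted p 0.0227), and it differed from HH24 by -0.22 ± 0.18. The adjusted p in HH24g against HH27 was over 0.05 without HH27 replicate 1 (0.0734), HH27 replicate 2 (0.0575) or HH24g replicate 2 (0.183), and with edgeR (0.128). LAMA4 did not pass in that comparison either without the filter on low counts or with these 2 groups fitted alone. The 7 matched endothelium markers summed to 211 to 225 CPM in HH24g, 148 to 176 CPM in HH27 and 132 to 213 CPM in HH24. Of these, CDH5 averaged 78.4, 53.6 and 65.6 CPM in HH24g, HH27 and HH24. PECAM1 averaged 4.97, 7.59 and 7.75 CPM, the last from HH24 replicate 2 alone. KDR, TIE1, TEK and ERG averaged highest in HH24g and lowest in HH24, and SOX18 highest in HH24. The part of endothelium in LAMA4 was not tested.

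LAMA1, the alpha chain of embryonic epithelial laminins, had 152 and 175 CPM in HH24g, against 244, 189.9 and 203 CPM in HH27 and 187, 159.8 and 158 CPM in HH24. HH24g lay below HH27 (-0.38 ± 0.12 SE, adjusted p 0.161) and overlapped HH24, and HH27 lay above HH24 (0.32 ± 0.14 SE, adjusted p 0.329). LAMA5, the alpha chain that largely takes over from LAMA1 in later epithelial basement membranes, had 211 and 167 CPM in HH24g, against 183, 178 and 251 CPM in HH27 and 271, 210.5 and 215 CPM in HH24, and the groups overlapped in all comparisons. The ratio of LAMA4 to LAMA5 per length was 0.458 and 0.697 in HH24g, 0.316, 0.300 and 0.270 in HH27, and 0.449, 0.362 and 0.623 in HH24, so HH27 lay below the other groups. LAMB3, a chain of the skin laminin that anchors hemidesmosomes, had 9.29 and 14.3 CPM in HH24g, against 6.84, 10.7 and 12.9 CPM in HH27 and 0, 0 and 3.91 CPM in HH24, and only HH24 replicate 3 held reads in HH24 (4 reads). Its partner LAMA3 was at 54.5 CPM (178 reads) in HH24g replicate 2 and under 1 CPM in every other library, while ectoderm markers were lower in HH24g replicate 2 (319 CPM) than in replicate 1 (385 CPM). LAMA3 did not pass the filter on low counts with all libraries, and was called against HH27 only when HH24g replicate 1 was left out.

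Among the glycoproteins, fibronectin was lower in the grafts than in HH27. FN1 had 644 and 649 CPM in HH24g, against 847, 892 and 911 CPM in HH27 and 729, 741 and 628 CPM in HH24. The graft libraries lay below every HH27 library, with a 1.37-fold difference between the groups, a log2 fold change of -0.45 ± 0.07 (SE, adjusted p 0.0114), and overlapped HH24 (-0.08 ± 0.08). HH27 lay above HH24 by a log2 fold change of 0.37 ± 0.08 (SE, adjusted p 0.0577), and the adjusted p ran from 0.0036 to 0.294 over 16 alternatives, the lowest with DESeq2. The adjusted p in HH24g against HH27 was over 0.05 without HH24g replicate 1 (0.0678) or HH24g replicate 2 (0.0921) and with edgeR (0.0873). POSTN, a matricellular protein of collagen-rich tissue, had 84.4 and 88.9 CPM in HH24g, against 74.3, 107 and 88.1 CPM in HH27 and 41.7, 31.2 and 27.4 CPM in HH24. HH24 was below both other groups without overlap, and HH24g lay within the range of HH27. In HH27 against HH24 POSTN rose to 89.7 ± 16.3 CPM, against 33.4 ± 7.43 CPM in HH24 (SD, n = 3 each), a log2 fold change of 1.34 ± 0.25 (SE, adjusted p 0.0387). The call was lost without the filter (1.36, adjusted p 0.0506) and without HH24 replicate 1 (1.60, adjusted p 0.13), HH24 replicate 2 (1.33, adjusted p 0.0836), HH24 replicate 3 (1.05, adjusted p 0.282), HH27 replicate 3 (1.32, adjusted p 0.0669), HH24g replicate 1 (1.35, adjusted p 0.0603) or HH24g replicate 2 (1.35, adjusted p 0.0607). Its adjusted p ran from 2.18e-05 to 0.282 over 15 alternatives. In HH24g against HH24 POSTN had a log2 fold change of 1.36 ± 0.26 (SE, adjusted p 0.0963) that DESeq2 called (1.34, adjusted p 0.000357), and the adjusted p ran from 0.000357 to 0.38 over 15 alternatives.

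The fibrillins, which build microfibrils, had their highest levels in the grafts. FBN1 had 109.7 and 122 CPM in HH24g, against 71.8, 42.6 and 85.5 CPM in HH27 and 73.8, 85.8 and 92.9 CPM in HH24. FBN2, the fibrillin most tied to embryonic tissue, had 227 and 224 CPM in HH24g, against 137, 139 and 202 CPM in HH27 and 134, 148 and 136 CPM in HH24. For both genes the graft libraries lay above every library of HH27 and of HH24. The log2 fold changes of HH24g against HH27 were 0.72 ± 0.20 (SE, adjusted p 0.108) for FBN1 and 0.47 ± 0.15 (SE, adjusted p 0.157) for FBN2, and those against HH24 0.47 ± 0.25 (SE, adjusted p 0.521) and 0.72 ± 0.20 (SE, adjusted p 0.208). FBN2 had an adjusted p under 0.05 in both comparisons when HH27 replicate 3, its highest HH27 library, was left out (0.00755 against HH27, where it ran from 0.00755 to 0.396 over 16 alternatives, and 0.0452 against HH24, where it ran from 0.0381 to 0.516 over 16 alternatives). SPARC varied little, with 299 and 293 CPM in HH24g, against 276, 265 and 304 CPM in HH27 and 267, 257 and 246 CPM in HH24, and its log2 fold change was 0.05 ± 0.08 in HH24g against HH27 and 0.20 ± 0.10 in HH24g against HH24, whose libraries did not overlap. TNC was listed at 0 in all 8 libraries, with 1 of 22 reference transcripts matched.

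Lumican was lower and decorin higher in the grafts than in HH27. LUM had 293 and 329 CPM in HH24g, against 449.5, 484 and 505 CPM in HH27 and 477, 273 and 457 CPM in HH24. Both graft libraries lay below every HH27 library, and HH24 replicate 2 lay below its group. In HH24g LUM was 1.53-fold below HH27, a log2 fold change of -0.62 ± 0.12 (SE, adjusted p 0.0319), and against HH24 it was -0.49 ± 0.15 (SE, adjusted p 0.255). The adjusted p against HH27 was over 0.05 without HH27 replicate 2 (0.0774), HH27 replicate 3 (0.0895), HH24g replicate 1 (0.167) or HH24g replicate 2 (0.121), with sample weights (0.064), with the replicate number as a block (0.0967) and with edgeR (0.217). DCN had 229 and 257 CPM in HH24g, against 162, 178 and 201 CPM in HH27 and 135, 85.8 and 138 CPM in HH24. The graft libraries lay above all HH27 libraries, which lay above all HH24 libraries, with log2 fold changes of 0.43 ± 0.11 (SE, adjusted p 0.0903) in HH24g against HH27, 0.88 ± 0.15 (SE, adjusted p 0.0941) in HH24g against HH24 and 0.45 ± 0.15 (SE, adjusted p 0.204) in HH27 against HH24. In HH24g against HH24 the adjusted p of DCN ran from 0.000114 to 0.353 over 16 alternatives, and was under 0.05 with DESeq2 and with only genes of at least 10 reads in every library.

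Lumican and decorin lie next to each other on chromosome 1 of GRCg7b, with 0 protein-coding genes between them. Within each library, the ratio of LUM to DCN per length was 0.884 and 0.882 in HH24g, against 1.91, 1.88 and 1.74 in HH27 and 2.44, 2.20 and 2.28 in HH24. Per length, decorin was above lumican in both grafts and below it in all 6 other libraries, HH24 replicate 2 included. This ratio, and those of COL4A6 to COL4A5, COL3A1 to COL1A2 and LAMA4 to LAMA5, were chosen after the values were seen and carry no test.

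**Figure D4:**
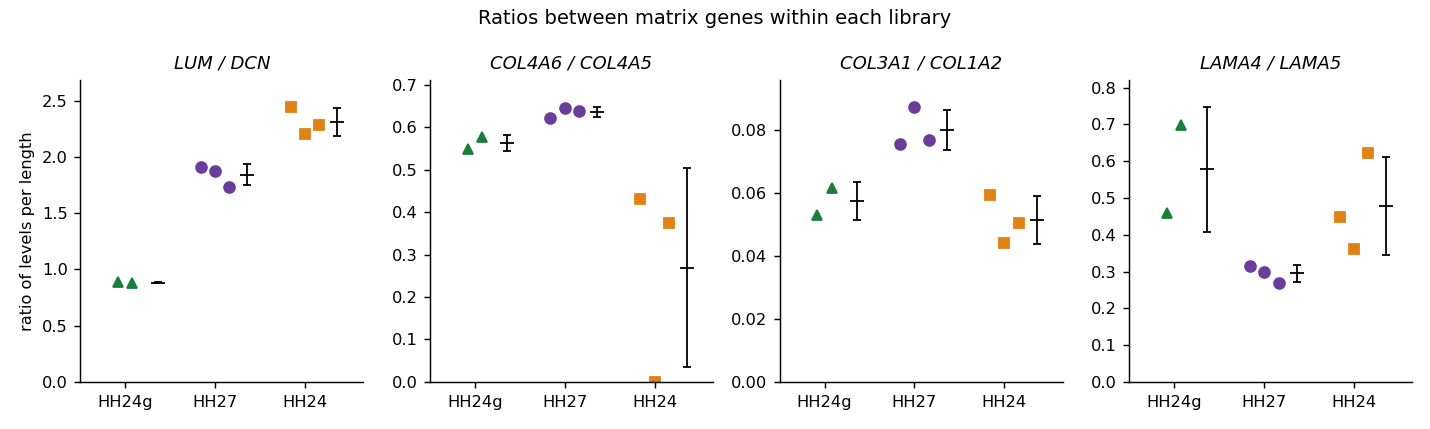
Ratios of levels per length between 4 pairs of matrix genes within each library of HH24g (green triangles), HH27 (purple circles) and HH24 (orange squares), with the mean and SD of each group in black. LUM to DCN is under 1 in both graft libraries and above 1.7 in the other libraries, and COL4A6 to COL4A5 in HH24 replicate 2 is near 0, where COL4A6 had under 0.5 read.

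HAS2, the main enzyme that makes hyaluronan in the limb bud, had 11.5 and 18.9 CPM in HH24g, against 34.5, 35.9 and 27.3 CPM in HH27 and 43.9, 23.4 and 36.2 CPM in HH24. Both grafts lay below every HH27 and HH24 library. The log2 fold change was -0.96 ± 0.24 (SE, adjusted p 0.0762) in HH24g against HH27 and -1.31 ± 0.30 (SE, adjusted p 0.152) in HH24g against HH24, where DESeq2 called it (-1.29, adjusted p 0.0336) and the adjusted p ran from 0.0336 to 0.496 over 15 alternatives. HAS2 had 23 and 62 reads in the grafts and 3 reads in HH24 replicate 2. VCAN, the hyaluronan-binding proteoglycan, had 545 and 607 CPM in HH24g, against 529.7, 502 and 542 CPM in HH27 and 514, 487 and 539 CPM in HH24. The graft libraries lay above the others by a small margin, with log2 fold changes of 0.13 ± 0.07 against HH27 and 0.15 ± 0.08 against HH24. Markers of tendon and perichondrium, tissues rich in decorin, were low: SCX and TNMD (2 matched of 3) summed to 26.3 to 31.4 CPM in HH24g, 5.45 to 11.5 CPM in HH27 and 12.7 to 23.4 CPM in HH24, TNMD was at 0 in every HH27 and HH24 library, and their part in DCN was not tested.

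By class, the median log2 fold change in HH24g against HH27 was -0.04 for fibrillar collagens, 0.34 for fibril-associated collagens, 0.00 for basement membrane collagens, 0.05 for laminin chains, 0.05 for glycoproteins and microfibrils, and -0.24 for proteoglycans and hyaluronan. In HH24g against HH24 the medians were 0.50, -0.77, 0.49, -0.14, 0.47 and -0.17 for the same classes, and in HH27 against HH24 0.49, -0.58, 0.47, 0.06, 0.25 and 0.07. The value of 0.49 for basement membrane collagens includes COL4A2, and without it the median was 0.16, as 0.12 took the place of 0.47 in HH27 against HH24. Fibril-associated medians rest on 3 genes, and 1 of these is COL9A2, for which no fold against HH27 is given. Of the other genes, COL14A1 had 0.34, 0.59 and 0.26 in the 3 comparisons, and COL16A1 had -0.19, -0.77 and -0.58. Network and transmembrane collagens, with 2 tested genes each, are left out of these medians. Summed over a class, fibrillar collagens had 2699 and 2182 CPM in HH24g, against 2331, 2503 and 2470.1 CPM in HH27 and 1849, 1133 and 1640.2 CPM in HH24, where COL1A2 made up most of each sum. Every HH24 library lay below the other libraries in this sum. Proteoglycans and hyaluronan had 1079 and 1212 CPM in HH24g, against 1176, 1199 and 1275 CPM in HH27 and 1170.2, 869 and 1169 CPM in HH24, so the sum overlapped between groups.

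The 17 matched members that did not pass the filter had at most 19 reads in any library, except LAMA3. Among them were COL4A3, COL4A4, COL7A1, COL8A1, COL9A3, COL19A1, COL20A1, COL21A1, COL22A1, COL28A1, LAMA2, LAMA3, LAMB2, LAMB4, LAMC3 and TNC. COL9A3, a partner of COL9A2, had 12 and 19 reads in HH24g, against 10, 1 and 4 reads in HH27 and 2, 0 and 1 reads in HH24. LAMB4, next to LAMB1 on chromosome 1, had 17 reads in HH24 replicate 1 and at most 3.08 in any other library. A level at this depth cannot separate groups. COL1A1, COL6A6, COL10A1, COL23A1, COL25A1, COL27A1, LAMB1 and LAMC1 had no matched transcript and were not analysed here. COL4A3BP, the ceramide transfer protein, had 61.9 and 58.4 CPM in HH24g, against 28.2, 37.9 and 55.8 CPM in HH27 and 53.5, 0.0644 and 45 CPM in HH24, where HH24 replicate 2 was near 0.

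The genes that process, anchor, sense and degrade this matrix were read from the same fit, in lists of 126 genes of which 80 were tested. In HH24g against HH27, 28 had an unadjusted p under 0.05 (15 higher and 13 lower), beside 17.2% of all genes (9.15% higher and 8.04% lower), and 3 were called, all higher in HH24g, beside 1.71% of all genes tested. SMOC1 and FRAS1, of the list of basement membrane partners, were among them. SMOC1, a secreted calcium-binding protein of basement membranes, had 69.9 and 92.9 CPM in HH24g, against 36.8, 16.5 and 23.4 CPM in HH27 and 41.7, 31.2 and 39.1 CPM in HH24, and its log2 fold change was 1.63 ± 0.23 (SE, adjusted p 0.00745). The call of SMOC1 was lost without HH24g replicate 2 (1.40, adjusted p 0.0612). Its graft libraries lay above every HH27 and HH24 library. FRAS1, a protein of the complex that ties epidermal basement membrane to mesenchyme, had 359 and 353 CPM in HH24g, against 149.9, 124 and 172 CPM in HH27 and 329.5, 288 and 317 CPM in HH24. FRAS1 was higher in HH24g than in HH27 (1.22 ± 0.11 SE, adjusted p 0.00138) and lower in HH27 than in HH24 (-1.07 ± 0.12 SE, adjusted p 0.00618), and HH27 stood below both other groups without overlap. FREM2, a member of the same complex, ran the other way, with 153 and 157 CPM in HH24g, against 229.9, 306 and 256 CPM in HH27 and 129, 93.6 and 124 CPM in HH24. FREM2 was higher in HH27 than in HH24 (1.04 ± 0.15 SE, adjusted p 0.0128) and lower in HH24g than in HH27 (-0.73 ± 0.12 SE, adjusted p 0.012), the last under the fold limit. Without HH24g replicate 1 or 2, the log2 fold change of FREM2 against HH27 was -0.71 or -0.75. Each of these fits leaves 1 graft library, so the FREM2 difference is not shown to hold without a graft library. Between the stages the call of FRAS1 was lost without HH24 replicate 1 (-1.03, adjusted p 0.0559), HH24 replicate 3 (-1.09, adjusted p 0.0528) or HH27 replicate 2 (-0.99, adjusted p 0.00988), and that of FREM2 without HH24 replicate 1 (1.09, adjusted p 0.0909), HH24 replicate 3 (1.03, adjusted p 0.112) or HH27 replicate 2 (0.97, adjusted p 0.0165). In HH24g against HH27 FRAS1 was called in every alternative run (adjusted p 1.53e-17 to 0.0134 over 16 alternatives).

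In HH24g against HH24, 0 of 80 were called, beside 0.011% of all genes, with 18 at an unadjusted p under 0.05 (9 higher and 9 lower), beside 11.3% of all genes (5.21% higher and 6.05% lower). Between the stages, HH27 against HH24, 3 were called, beside 1.07% of all genes (0.463% higher and 0.607% lower): FREM2 and SPOCK1 were higher and FRAS1 lower. SPOCK1, a testican proteoglycan, had 78.1 and 81.4 CPM in HH24g, against 83.3, 106 and 93 CPM in HH27 and 50.3, 46.8 and 40.1 CPM in HH24, with a log2 fold change of 1.02 ± 0.17 (SE, adjusted p 0.0263) in HH27 against HH24, and the grafts lay above HH24 too. The call was lost without HH24 replicate 1 (1.15, adjusted p 0.115), HH24 replicate 2 (1.02, adjusted p 0.0666), HH24 replicate 3 (0.85, adjusted p 0.237), HH27 replicate 2 (0.96, adjusted p 0.0452) or HH27 replicate 3 (1.01, adjusted p 0.055). It was also lost with sample weights (0.99, adjusted p 0.0243) and with the replicate number as a block (0.99, adjusted p 0.0355). Of 18 tested other matrix proteins, 9 were higher and 1 lower in HH24g against HH27 at an unadjusted p under 0.05, beside 9.15% higher and 8.04% lower of all genes. TGFBI and EMILIN2 passed an adjusted p of 0.05 in HH24g against HH27 without reaching the fold limit (0.66 ± 0.11 SE, adjusted p 0.0146 and 0.79 ± 0.13 SE, adjusted p 0.0141), and edgeR left both over 0.05 (0.105 and 0.125). TGFBI was also over 0.05 without HH27 replicate 1 (0.0509), and EMILIN2 with the replicate number as a block (0.0592). Without HH24g replicate 1 or 2, the log2 fold change was 0.57 or 0.77 for TGFBI and 0.75 or 0.84 for EMILIN2. Each of these fits leaves 1 graft library, so whether either gene passed is not read from them, and neither result is shown to hold without a graft library. Of 18 tested genes of collagen processing (28 in the list), 12 had a fold change below 0 in HH24g against HH27, as did 4693 of all 9062 genes, and the 7 with an unadjusted p under 0.05 were all lower, beside 8.04% of all genes: P4HA2, FKBP10, LOXL1, LOXL2, ADAMTS2, ADAMTS3 and PCOLCE2. None of the 18 had an adjusted p under 0.05. FKBP10, a chaperone of collagen folding, came nearest and was named, as were LOXL2 and ADAMTS2, after its values were seen, with 57.4 and 54.4 CPM in HH24g, against 74.3, 79.6 and 83.4 CPM in HH27 and 66.3, 85.8 and 57.7 CPM in HH24 and a log2 fold change of -0.51 ± 0.11 (SE, adjusted p 0.0538). LOXL2, a cross-linking oxidase, had -0.44 ± 0.11 (adjusted p 0.086) and ADAMTS2, which trims the ends of procollagen, -1.04 ± 0.25 (adjusted p 0.0709). Of 20 tested matrix receptors, 2 (10%) had an unadjusted p under 0.05 in HH24g against HH27, beside 17.2% of all genes. These were ITGAV and CD44, the hyaluronan receptor, both lower in HH24g, beside 8.04% of all genes. Of 13 tested turnover genes, 3 were higher and 2 lower at that limit, beside 9.15% higher and 8.04% lower of all genes.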

How the data were processed

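Total RNA depleted of ribosomal RNA was sequenced from 8 libraries of distal wing tissue: 2 of HH24g, 3 of HH27 and 3 of HH24. Per the labels, the authors' processing notes name HISAT2 2.0.2, Salmon, limma and the genome build galGal4. The deposited tables hold estimated counts of reads and TPM values for 57399 RefSeq transcripts in each library, with counts split between transcripts by the authors' quantifier.

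Transcript accessions were matched to gene symbols through RefSeq's gene table for the assembly GRCg7b. The table matched 26660 transcripts (46.4%), which made 14612 genes, and gave gene order and chromosomes only. Estimated counts were summed per gene and rounded. Genes were filtered with edgeR's filterByExpr (minimum count 10, minimum total 15), which left 9062, then scaled by TMM (edgeR 4.0.16) and fitted with voom and limma 3.58.1 in R 4.3.3, with all 3 groups in 1 model. P-values were adjusted by the Benjamini-Hochberg method over all genes tested, and a call needed an adjusted p under 0.05 and a log2 fold change over 1 in either direction, the limits that the study's methods give. edgeR's quasi-likelihood test and DESeq2 1.42.0 were run as alternatives, beside other size factors, no filter, at least 10 reads in every library, weights per sample, fits on 2 groups alone, a block for the replicate number, and each library left out in turn. The fit was tested on simulated data. Values of a group are means ± SD. Levels per length are the deposited TPM summed per gene. Library totals were 1697272 to 5095662 reads, of which 9.24% (HH24 replicate 2) to 67.6% fell on matched genes, and the rest, led by 1 transcript with 8.62% to 74.3% of reads, stayed out of the library sizes. A floor of 3 reads and all errors cover only what these libraries show.

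Members, classes and lists were chosen with earlier results of these data known. Values in every library are given for members called or with an unadjusted p under 0.05 in any comparison, the 2 of each class highest per length, and the 5 highest and 5 lowest fold changes of each comparison. Genes of the pathway lists were named where called, apart from results that are not reported here, and others of those lists, COL11A1 and some members under the filter after their values were seen. COL4A3BP, which the symbol rule takes, was kept apart from the collagen classes. A fold against a group listed at 0 in every library is not given. Per the study's methods 1 HH24 and 1 HH24g library had been set aside after quality control. The labels do not say which libraries these were, and all 8 were used here. Genomic and protein sequences were not used here.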

Additional observations from a re-analysis of the deposited data

How the results depend on the processing

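Every alternative kept 0 called members in HH24g against HH27, except that dropping the fold limit gave 4 and leaving out 1 library gave 0 to 1 (LAMA3, without HH24g replicate 1, which leaves the single library that holds its reads). In HH24g against HH24, edgeR gave 1 and DESeq2 3, and leaving out 1 library gave 0 in all 8 fits. In HH27 against HH24, where 2 were called, dropping the fold limit gave 4, DESeq2 gave 4, leaving out 1 library gave 0 to 2, and asking for 10 reads in every library gave 0, since POSTN and LAMA4 had fewer reads in HH24 replicate 2 and were not tested. Among named members the fold changes of COL13A1 and COL9A2 reversed, both in HH24g against HH24: COL13A1 was -2.10 and became 2.00 without HH24g replicate 2, its range over left-out libraries being -4.64 to 2.00, and COL9A2 was -1.93 and became 0.52 with edgeR, 0.87 with DESeq2, 0.79 with the replicate block and -3.79 to 2.45 with 1 library left out. Both genes were at 0 in HH24g replicate 2. The medians of classes moved by more than the spread between libraries in 23 alternative values and by less in 355. For the genes of the pathway lists the same alternatives were chosen after seeing the data. With the replicate number as a block, 0, 0 and 2 members were called in the 3 comparisons, as without it, and over all genes 163, 3 and 115 were called with the block and 155, 1 and 97 without. Deviations of libraries with the same number in different groups correlated at -0.0294 to 0.0404. The 2 HH24g libraries deviate from their mean in mirror image (correlation -1), so these values cannot show whether the numbers pair the samples. Depth limits the HH24 comparisons: 3 reads in HH24 replicate 2 are worth 23.4 CPM, above the level of several members.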
